A study of Mus musculus with 6 samples.

Results

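The nuclear genes of the respiratory chain and ATP synthase were followed in monocyte RNA from mice with kidney inflammation. They were taken by symbol: every gene row beginning Ndufa, Ndufb, Ndufc, Ndufs, Ndufv, Uqcr, Cox4 to Cox8 or Atp5, with Sdha, Sdhb, Sdhc, Sdhd and Cycs. This gave 93 of 24047 gene rows. They comprised 36 complex I subunits, 4 of complex II, 8 of complex III, cytochrome c, 20 of complex IV, 15 of complex V, the 7 complex I assembly factors Ndufaf1 to Ndufaf7, and Atp5s and Atp5sl, which match the pattern but are not counted here as subunits. The symbol rule leaves out Cyc1, the nuclear gene of the cytochrome c1 subunit of complex III, which is reported apart. The subunits encoded by mitochondrial DNA were not analysed here.

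All 6 libraries came from wild-type mice, strain written C5/Bl6, aged 8 to 10 weeks, in which nephrotoxic nephritis, an antibody-driven injury of the glomerulus, had been induced and which were killed on day 13. The kidney group held 3 libraries (double_pos replicates 7, 8 and 22) and the spleen and bone marrow group held 3 (double replicates 2, 24 and 26). No group without nephritis enters the comparison, and the sources used here do not name the sorting markers. The labels do not say which mice gave which library, so p-values measure the spread between these libraries, which may be technical.

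The inner mitochondrial membrane carries 4 electron transfer complexes. Complex I takes electrons from NADH and complex II from succinate. Complex III passes them to cytochrome c, complex IV passes them on to oxygen, and complex V, the ATP synthase, uses the resulting proton gradient to make ATP. In monocytes and macrophages, the balance between this pathway and glycolysis is known to shift with activation.

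Total counts per library were 7938223, 7824387 and 3492391 for kidney 7, 8 and 22, and 8925781, 7311991 and 9727489 for spleen and marrow 2, 24 and 26. All 8 monocyte markers examined were detected in every library, and 7 of them differed in edgeR's test, 5 being called higher in kidney and 2 lower. Ly6c2, which marks inflammatory monocytes, had 317, 752 and 810.5 CPM (counts scaled to a common library size) in kidney 7, 8 and 22 and 5020 to 5860 in spleen and marrow, a log2 fold change of -3.11 ± 0.34 (SE, adjusted p = 0.00149). Cx3cr1, a chemokine receptor of patrolling monocytes and tissue macrophages, had 177, 172 and 233 CPM against 28.6 to 42.0, a log2 fold change of 2.45 ± 0.21 (SE, adjusted p = 0.000761). Markers of other cells also differed. The summed level of 15 kidney tubule markers, in CPM, was 1098, 460 and 2953 in kidney 7, 8 and 22 and 24.3 to 25.99 in the spleen and marrow libraries, where 8 to 10 of the 15 were at 0, and 9 of the 15 were called higher in kidney. Endothelial markers summed to 830 CPM in kidney 8 and to 4.38 to 22.9 CPM elsewhere, and granulocyte precursor markers to 242, 1160 and 14255 CPM in kidney 7, 8 and 22 and 8174 to 10120 CPM in spleen and marrow. Camp, Ngp and Ltf, granule genes of later precursors, were higher in kidney 22 (5261, 8146 and 394 CPM) than in any spleen and marrow library, while Elane, Mpo, Prtn3 and Ms4a3, of earlier ones, had 245.5, 37.3, 109 and 62.0 CPM there against at least 1078, 221.5, 627 and 188 in spleen and marrow. The 8 cell cycle markers summed to 51.0 to 223 CPM in kidney and 1382 to 1570 in spleen and marrow, and 8 of 8 were called lower in kidney. The part of these differences in the results below was not tested. In bulk samples, fewer cells of a type and less RNA per cell cannot be told apart.

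Most respiratory chain genes had lower counts in kidney than in spleen and marrow monocytes, by small amounts, and 10 passed the test. The genes called lower were Ndufb11, Ndufs6, Ndufs4, Ndufb2 and Ndufb9 of complex I, Uqcrfs1 of complex III, Atp5f1, Atp5k and Atp5d of complex V, and the assembly factor Ndufaf7. None was called higher. Of the 93 genes, 86 passed the filter on low counts and were tested with edgeR's quasi-likelihood test, with Benjamini-Hochberg adjusted p under 0.05 as a call. Their 10 calls are 11.6% of 86, against 5.90% of all 10626 genes tested called lower and 7.83% called higher. At an unadjusted p under 0.05, 30 were lower, against 12.5% of all genes, and 0 were higher, against 15.4%. Their log2 fold change, kidney over spleen and marrow, was below 0 for 73 of 86, against 47.3% of all genes, and above 0 for 13, against 52.7%. The 3 kidney libraries lay below all 3 spleen and marrow libraries for 36 of 86, or 41.9%, against 18.8% of all genes. Ribosomal protein genes, given below, had like shares below 0 and without overlap. Of these, 9.09% of the mitochondrial and 2.56% of the cytosolic ones were called lower. The median log2 fold change of the 86 respiratory chain genes was -0.26, against 0.05 over all genes. Only Ndufaf7 was at least 2-fold lower, a size that 8.11% of all genes reached.

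The number of calls depended on single libraries. It was 3 without kidney 7, 6 without kidney 8 and 21 without kidney 22, where 4.48%, 5.38% and 11.1% of all genes were called lower. It was 0, 1 and 0 without spleen and marrow 2, 24 and 26, where 1.84%, 1.84% and 1.59% of all genes were called lower. No member was called higher in any of these fits, and the median stayed below 0 in each. Of the 10 calls, Ndufb11 held in 4 of the 6 fits, Ndufs6 and Ndufaf7 in 3, each time without a kidney library, and Ndufb9 in 0. Atp5f1 and Uqcrfs1 held without kidney 8 or 22, and Ndufs4, Ndufb2, Atp5k and Atp5d only without kidney 22. The highest adjusted p over these genes' alternatives was 0.168, for Ndufs4.

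**Figure D1:**
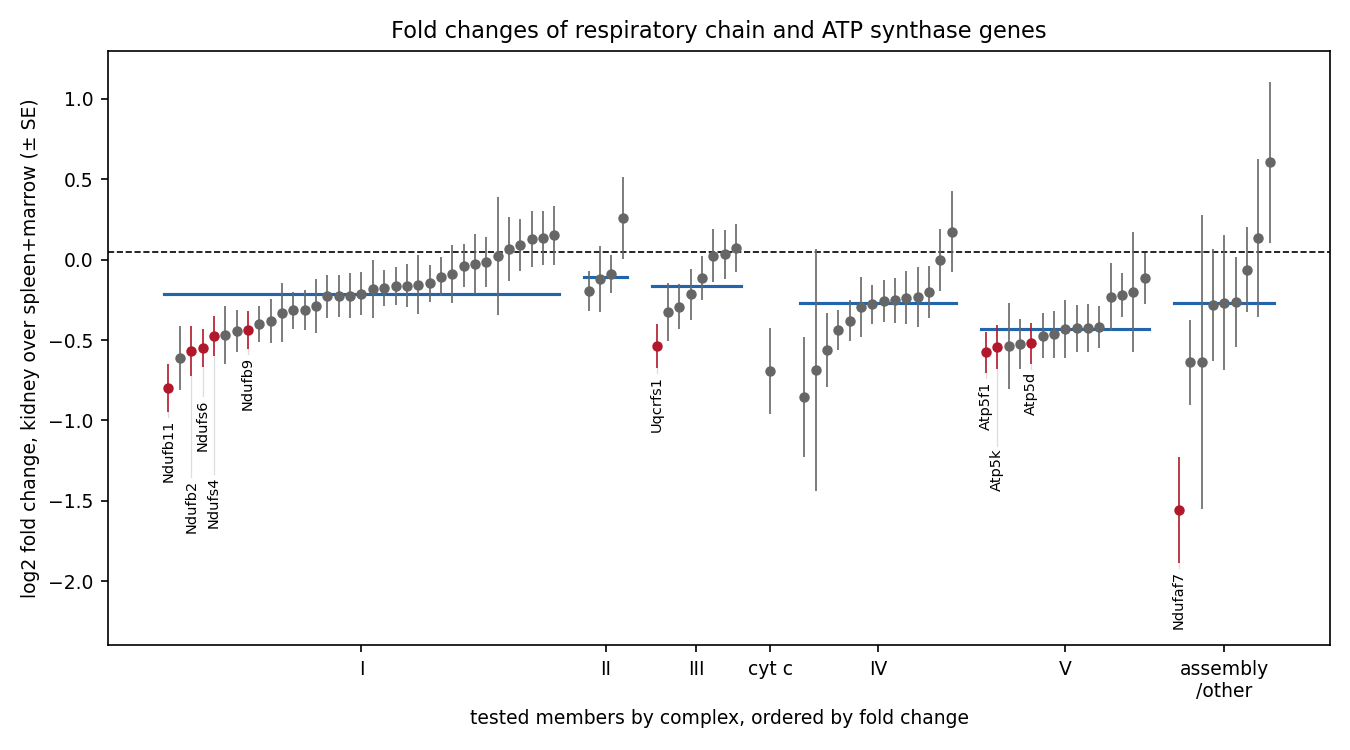
Log2 fold change of each tested gene (y axis, kidney over spleen and marrow, with its standard error), grouped by complex (x axis) and ordered by size. Red points are the 10 genes called lower, blue lines are group medians (assembly factors, Atp5s and Atp5sl together form the last group) and the dashed line is the median of all genes tested (0.05); most points and the 6 blue lines lie below it.

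For several of the genes called lower, the sequence just before the transcription start holds letters that match the recognition motif of a factor known to act on respiratory chain genes. The 100 bases before the start are shown for the 4 with a match there, from the RefSeq promoter table (GRCm38.p6), 5′ to 3′ on the gene's strand, with the match in capitals. In Ndufs6 (chr13:73328483-73328582, minus strand) and Atp5k (chr5:108434400-108434499, minus strand) the match is to the NRF1 motif. In Uqcrfs1 (chr13:30545317-30545416, minus strand) and Ndufb2 (chr6:39592465-39592564, plus strand) it is to the CREB/ATF motif.
Ndufs6: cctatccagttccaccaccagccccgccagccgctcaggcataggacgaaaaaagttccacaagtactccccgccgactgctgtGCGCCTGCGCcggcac
Atp5k: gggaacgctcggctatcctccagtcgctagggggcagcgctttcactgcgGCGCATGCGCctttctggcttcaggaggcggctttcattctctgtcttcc
Uqcrfs1: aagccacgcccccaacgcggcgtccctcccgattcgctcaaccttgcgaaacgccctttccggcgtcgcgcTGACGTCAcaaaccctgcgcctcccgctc
Ndufb2: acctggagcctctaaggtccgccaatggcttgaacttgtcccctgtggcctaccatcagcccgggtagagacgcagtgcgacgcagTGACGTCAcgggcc

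Across the full windows of that table, from 250 bases before to 50 after the start, 77 members had a promoter. Both strands were searched. The NRF1 motif, the letters in capitals in Ndufs6 and Atp5k with any base in the fifth place, was present for 24.7% of the 77, against 5.2% of all 27025 genes. The ETS motif CCGGAAG, read by GABP, was present for 22.1% against 9.9%. The YY1 motif AAGATGGCG was present for 10.4% against 1.6%, the CREB/ATF motif TGACGTCA for 6.5% against 2.0%, and the ERR motif TCAAGGTCA for 2.6% against 0.5%. At least 1 of the 5 was present for 54.5% of the members and 17.0% of all genes. Among the 9 called members with a promoter, 5 had a match (55.6%), a share near the 54.5% of all members with a promoter. They were the 4 printed and Ndufs4. The Ndufs4 match is to the YY1 motif and begins at position 36, counting the start site as 1. After the start, Ndufs6 also had a YY1 match, at 34, and Atp5k an ETS match, at 13. These matches describe the letters only.

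Complex I, the NADH dehydrogenase, had 35 tested subunits, of which 5 (14.3%) were called lower and 0 higher. Over all genes, 5.90% were called lower and 7.83% higher. The median log2 fold change of complex I was -0.21. All 5 are accessory subunits, which surround the catalytic core. Ndufb11, in the membrane arm, had 261, 268 and 333 CPM in kidney 7, 8 and 22 and 554, 471 and 476 CPM in spleen and marrow 2, 24 and 26. The groups were well apart, kidney 22 being the highest kidney library. Its log2 fold change was -0.80 ± 0.15 (SE, adjusted p = 0.0119), a level 1.74-fold lower in kidney. Without spleen and marrow 2 or 26 it was no longer called, with an adjusted p of up to 0.0586, and over all alternatives its adjusted p ran from 3.5e-05 to 0.0586.

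Ndufs6, a zinc-binding subunit of the peripheral arm, had 355, 353 and 354 CPM in kidney and 560.1, 487 and 509 in spleen and marrow. The kidney libraries were almost equal and all lay below the other group. The log2 fold change was -0.55 ± 0.12 (SE, adjusted p = 0.0207). Ndufs4, a peripheral arm subunit whose loss causes Leigh syndrome, had 215, 198 and 209.7 CPM in kidney and 312, 268 and 286.5 in spleen and marrow. Again the groups did not overlap, and the log2 fold change was -0.48 ± 0.13 (SE, adjusted p = 0.0431).

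Ndufb2 and Ndufb9, both in the membrane arm, were called close to the threshold. Ndufb2 had 226.5, 273 and 252.5 CPM in kidney and 437, 329 and 348 in spleen and marrow, a log2 fold change of -0.57 ± 0.15 (SE, adjusted p = 0.0484). Ndufb9 had 496, 543 and 494.5 CPM in kidney and 740.3, 662 and 674 in spleen and marrow, a log2 fold change of -0.44 ± 0.12 (SE, adjusted p = 0.0470). In both genes spleen and marrow 2 was the highest of the 6 libraries and the groups did not overlap. Ndufb9 was no longer called when any 1 library was left out.

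By arm, 3 of 19 tested membrane arm subunits (15.8%) and 2 of 16 peripheral arm subunits (12.5%) were called lower, with medians of -0.23 and -0.16. The 7 nuclear-encoded core subunits, which carry the flavin and the iron-sulfur clusters, included no call, and their log2 fold changes ran from -0.31 to 0.13. Of the 28 tested accessory subunits, 5 (17.9%) were called. With 7 core genes, the lack of a call cannot be told from the 5.90% of all genes called lower. Whether core and accessory subunits differ was not tested.

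Complex II, which also belongs to the citric acid cycle, had no call among 4 subunits, against 5.90% of all genes called lower. Its median was -0.10. With 4 genes, the lack of a call cannot be told from the share of all genes. Sdha, the flavin subunit, had 64.5, 61.3 and 113 CPM in kidney and 68.3, 59.8 and 70.6 in spleen and marrow. Kidney 22, the smallest library and the one with the highest tubule marker sum, stood above the other 5, which overlapped. Any part of either in this value was not tested. The log2 fold change of Sdha was 0.26 ± 0.25 (SE, adjusted p = 0.566). Sdhb, the iron-sulfur subunit, had a log2 fold change of -0.09 ± 0.12, and the membrane anchors Sdhc and Sdhd had -0.12 ± 0.21 and -0.19 ± 0.13.

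Complex III had 1 call, lower in kidney, among 8 subunits (12.5%, against 5.90% of all genes). With 8 genes, 1 call cannot be told from that share of all genes. Uqcrfs1, the Rieske iron-sulfur protein, had 223, 252.5 and 200.3 CPM in kidney and 343, 311 and 328 in spleen and marrow. The groups did not overlap, and the log2 fold change was -0.54 ± 0.14 (SE, adjusted p = 0.0371). The 5 small subunits had a median of 0.02, and 2 of the 5 had a log2 fold change below 0. Uqcr10 and Uqcr11, the most abundant per length, had log2 fold changes of 0.03 ± 0.15 and -0.11 ± 0.14. Cyc1, outside the symbol rule, had -0.29 ± 0.21 (SE, adjusted p = 0.406), with overlapping groups.

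Cycs encodes cytochrome c, the mobile carrier between complexes III and IV that also triggers apoptosis when released. It had 136, 181 and 214 CPM in kidney and 401, 217 and 239 in spleen and marrow. The groups did not overlap, but kidney 22 and spleen and marrow 24 were nearly equal, and spleen and marrow 2 stood far above the others. The log2 fold change was -0.69 ± 0.27 (SE, adjusted p = 0.139).

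Complex IV, cytochrome c oxidase, had 14 tested subunits with no call, against 5.90% of all genes called lower. It had 13 log2 fold changes below 0 and a median of -0.27. With 14 genes, the lack of a call cannot be told from the share of all genes. Cox6a1 came nearest, with a log2 fold change of -0.44 ± 0.13 (SE, adjusted p = 0.0592). Cox6b1 and Cox6c, the most abundant per length, had -0.26 ± 0.13 and -0.20 ± 0.16. Cox7c had 310.5, 321 and 521 CPM in kidney and 437, 285 and 298 in spleen and marrow. Its groups overlapped, with kidney 22 highest, and its log2 fold change was 0.17 ± 0.25 (SE, adjusted p = 0.709).

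Several complex IV subunits exist as tissue isoforms, and 6 such rows, Cox4i2, Cox6a2, Cox7b2, Cox8b, Cox8c and Ndufa4l2, had too few counts to be tested. Cox4i2, a form of subunit 4 known from lung, had 8 counts over all 6 libraries, Cox6a2, a muscle form, had 46, and Cox8c, Cox8b and Cox7b2 had 1, 0 and 0. Ndufa4l2, a hypoxia-induced relative of Ndufa4, had 25 counts, of which 20 were in kidney 8, the library with the high endothelial marker sum. Any part of endothelial RNA in these counts was not tested. Cox6b2, known from testis, was detected in every library and had 33.4, 29.9 and 11.5 CPM in kidney and 37.4, 46.5 and 53.4 in spleen and marrow. All 3 kidney libraries lay below the other group, kidney 22 by the most, and the log2 fold change was -0.86 ± 0.37 (SE, adjusted p = 0.181). Cox7a1, the muscle form of subunit 7a, had 98 counts in all and overlapping groups.

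Complex V had the lowest median of the 5 complexes, -0.43. All 15 subunits had a log2 fold change below 0. For 10 of 15, or 66.7%, the groups did not overlap, against 18.8% of all genes, and 3 were called lower. Atp5f1, subunit b of the peripheral stalk that holds the catalytic head still, had 318, 381 and 361 CPM in kidney and 567, 496 and 519.7 in spleen and marrow. Its groups did not overlap, and its log2 fold change was -0.58 ± 0.13 (SE, adjusted p = 0.0246). Atp5k, subunit e, which helps join synthase dimers, had 378, 399 and 375 CPM in kidney and 639.6, 503 and 537 in spleen and marrow. The 3 kidney libraries were close together, and spleen and marrow 2 was the highest of all. The log2 fold change was -0.54 ± 0.13 (SE, adjusted p = 0.0346).

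Atp5d, subunit delta of the rotating central stalk, had 365, 394.5 and 389 CPM in kidney and 616, 501 and 532 in spleen and marrow. The groups did not overlap, and the log2 fold change was -0.52 ± 0.13 (SE, adjusted p = 0.0349). Atp5b and Atp5a1, the catalytic beta and the alpha subunit of the head, had log2 fold changes of -0.53 ± 0.15 and -0.43 ± 0.15 (SE, adjusted p = 0.0616 and 0.0986). In both, the groups did not overlap and no call was made. The median was -0.43 for the 5 genes of the head and central stalk, -0.43 for the 3 genes of subunit c, which forms the turning ring, and -0.46 for the 7 genes of the stator and membrane part.

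The genes for subunit c, Atp5g1, Atp5g2 and Atp5g3, encode the same mature protein. Of their summed FPKM (fragments scaled for library depth and transcript length, a level per length), Atp5g1 made 34.4%, 31.9% and 33.7% in kidney and 30.5%, 28.8% and 30.1% in spleen and marrow. Each kidney share lay above each spleen and marrow share. The exact two-sided permutation p was 0.1, the smallest that 3 against 3 allows, and 0.35 after Benjamini-Hochberg adjustment over the 7 isoform shares tested. Shares of Atp5g1 from the counts gave 24.2% and 21.7%, with groups that overlapped (exact permutation p = 0.2). Atp5g3 made a mean of 52.4% in kidney and 55.2% in spleen and marrow by FPKM. By counts it made 74.1% and 76.5% (exact permutation p = 0.1 for each measure, 0.35 adjusted for FPKM). Count shares are affected by Atp5g2, which made 14.3% by FPKM but 1.72% by counts in kidney. No isoform share had a p under 0.05, which this design cannot reach.

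Ndufaf7, a methyltransferase that modifies a core subunit during complex I assembly, showed the largest difference of all 86 genes. It had 31.6, 27.5 and 12.3 CPM in kidney and 64.1, 67.2 and 82.7 in spleen and marrow. The groups were far apart, kidney 22 being lowest. The log2 fold change was -1.56 ± 0.33 (SE, adjusted p = 0.0197), a level 2.95-fold lower in kidney. Of the 7 assembly factors this was the only call (14.3%, against 5.90% of all genes), and their median was -0.28. With 7 genes, 1 call cannot be told from that share of all genes. Atp5s had the largest log2 fold change upward, 0.61 ± 0.50 (SE, adjusted p = 0.479).

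The libraries of a group were not alike over these genes. The summed level of all 93 was 31407, 33288 and 37024 CPM in kidney 7, 8 and 22 and 46302, 37938 and 39937 CPM in spleen and marrow 2, 24 and 26. The groups did not overlap, but kidney 22 lay close below spleen and marrow 24. Within the kidney group, kidney 22 had the highest value for 48 of the 86 tested genes and kidney 7 the lowest for 48. Within the other group, spleen and marrow 2 was highest for 75 and spleen and marrow 24 lowest for 73. Kidney 22 was also the smallest library and had the highest tubule and granulocyte precursor sums of the kidney group; the part of these in its higher levels was not tested.

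**Figure D2:**
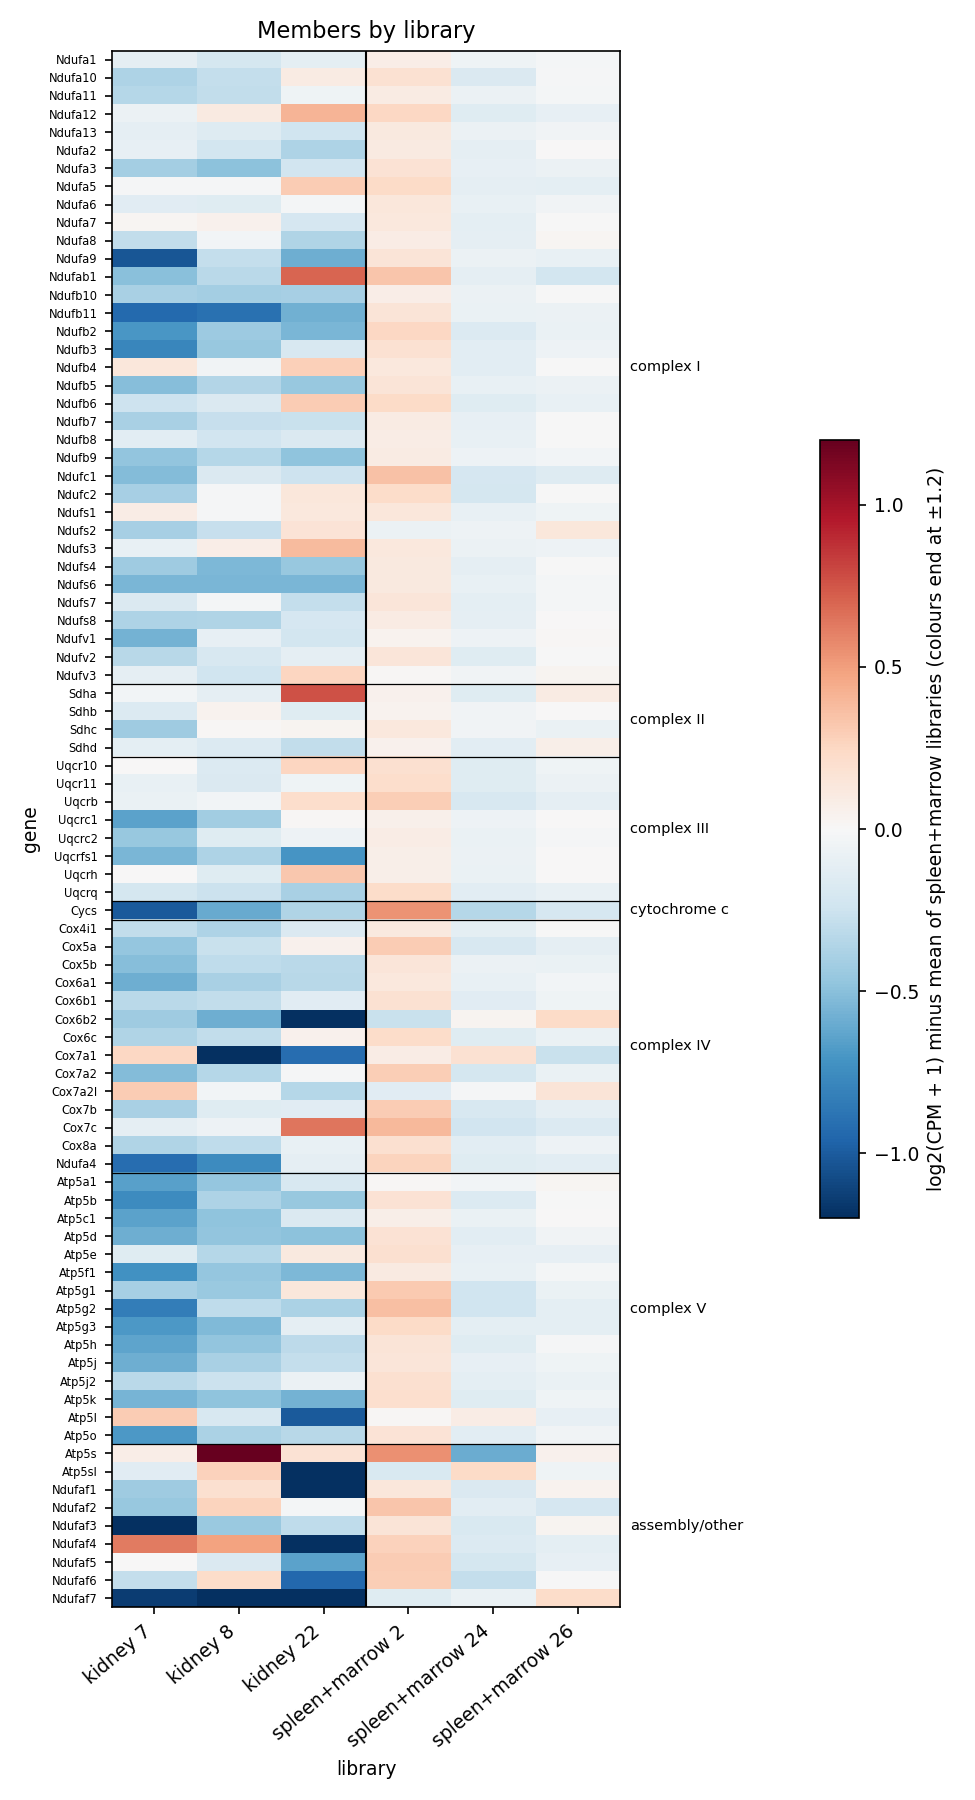
Each tested gene (rows, by complex) in each library (columns), as log2(CPM + 1) minus the mean of the spleen and marrow libraries; the colour scale ends at ±1.2, so larger differences are drawn at its ends. Blue (lower) fills most kidney cells, on median palest in kidney 22, and spleen and marrow 2 is red for most genes.

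Set against the sum of all members in the same library, which removes the overall level, the makeup differed little. Complex V made 21.9%, 22.8% and 23.3% in kidney and 24.6%, 24.7% and 24.6% in spleen and marrow. Complex III made 11.5%, 10.5% and 11.03% in kidney and 9.78%, 9.69% and 9.69% in spleen and marrow. The kidney share was thus below the other group for complex V and above it for complex III, with no overlap in either. The shares of complexes I, II and IV overlapped, at 33.3% to 35.7%, 2.31% to 3.02% and 26.9% to 28.7% over the 6 libraries. Shares of 1 sum are tied to each other, and these were not tested.

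**Figure D3:**
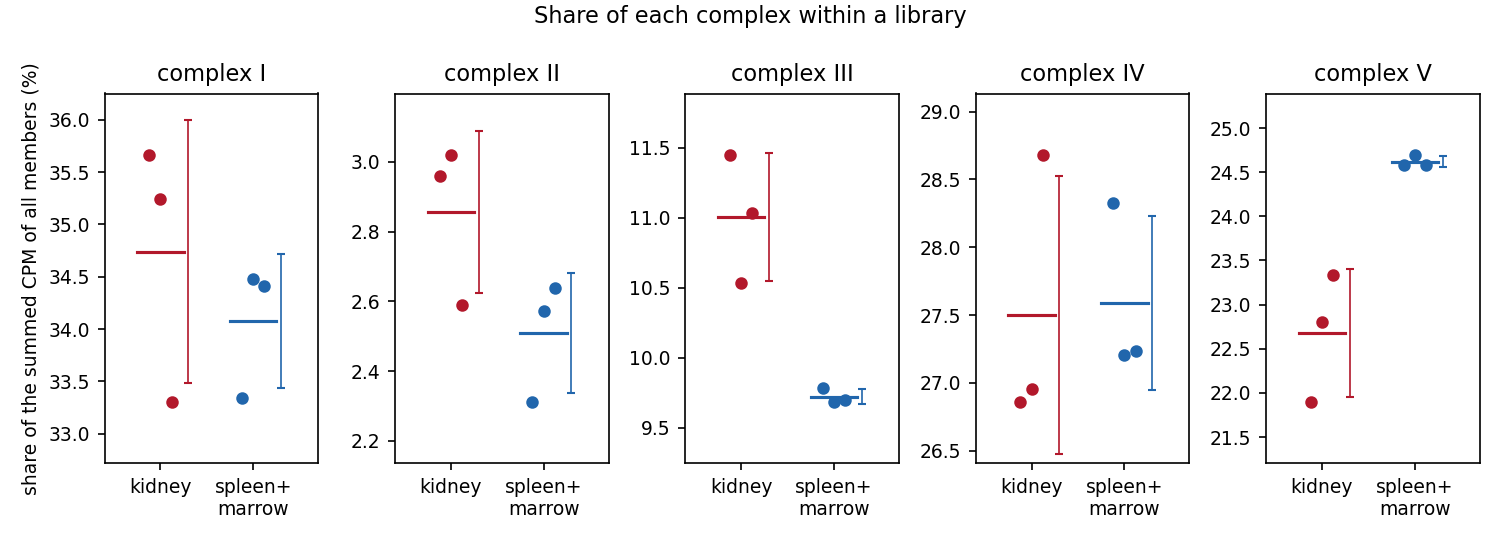
Share of each complex in the summed CPM of all members (y axes, percent, not starting at 0) for each library (points) in the kidney and the spleen and marrow group, with the mean (line) and SD (bar). The groups separate for complexes III and V and overlap for I, II and IV.

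Levels per length spread widely within each complex. Complex V ran from 90.3 FPKM for Atp5a1 to 2777 FPKM for Atp5k, as means of the 6 libraries. Complex I ran from 4.39 FPKM for Ndufs1, its largest core subunit, to 2095 FPKM for Ndufa3. Complex II had the lowest median, 67.2 FPKM, with 329 FPKM for Sdhb, 118 for Sdhd, 16.0 for Sdhc and 11.1 for Sdha. In complex III Uqcr10 had 1538 FPKM and Uqcr11 1345, and in complex IV Cox6b1 had 2066 and Cox6c 1950. Thus subunits of 1 complex, which assemble in fixed proportion, differed by orders of magnitude in FPKM. These gaps depend on the lengths used for scaling. Atp5k and Atp5a1 had like CPM, 384 and 409 in kidney and 560 and 550 in spleen and marrow. Their CPM over FPKM implied lengths of 170 and 5308 bases, against 272 and 2471 for their shortest coding transcripts. The part of such lengths in the spread was not tested. Across 84 members, the level per length and the length of the shortest coding transcript had a Spearman correlation of -0.26, as a description over genes that share their libraries.

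For 4 members above 10 FPKM the count table fell far short of the FPKM table. The length implied by dividing counts by FPKM was under 25% of the shortest coding transcript. Ndufs5 had 1 count in all 6 libraries but 53.1, 44.6 and 29.1 FPKM in kidney and 99.8, 44.2 and 40.3 in spleen and marrow, so its absence from the test says nothing of its level. Atp5l had 671 counts in all, beside a mean of 1661 FPKM. Ndufb4 and Atp5g2 were the others. These 4 share sequence with other genes: 21.7%, 84.8%, 37.0% and 38.3% of the 50-base stretches of Ndufs5, Atp5l, Ndufb4 and Atp5g2 transcripts also occur in transcripts of other genes, for Atp5l in 12 pseudogenes. Of 92 members with a coding transcript in the annotation, 49 share at least 1 such stretch and 18 share at least 20%. The sources used here do not say how reads matching several genes were counted. Among called genes, Atp5f1 shares 37.6%, Ndufb9 23.4% and Ndufb11 17.5%. Their values could therefore miss reads of their own or hold reads of other genes, and by how much was not tested. Ndufs4, Uqcrfs1 and Atp5d share none. Implied lengths that were too long were not screened, and some members had them. Ndufaf5 implied 5169 bases against 1166 for its coding transcript. Ndufaf7, a called gene, implied 4561 against a median coding transcript of 1315.

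**Figure D4:**
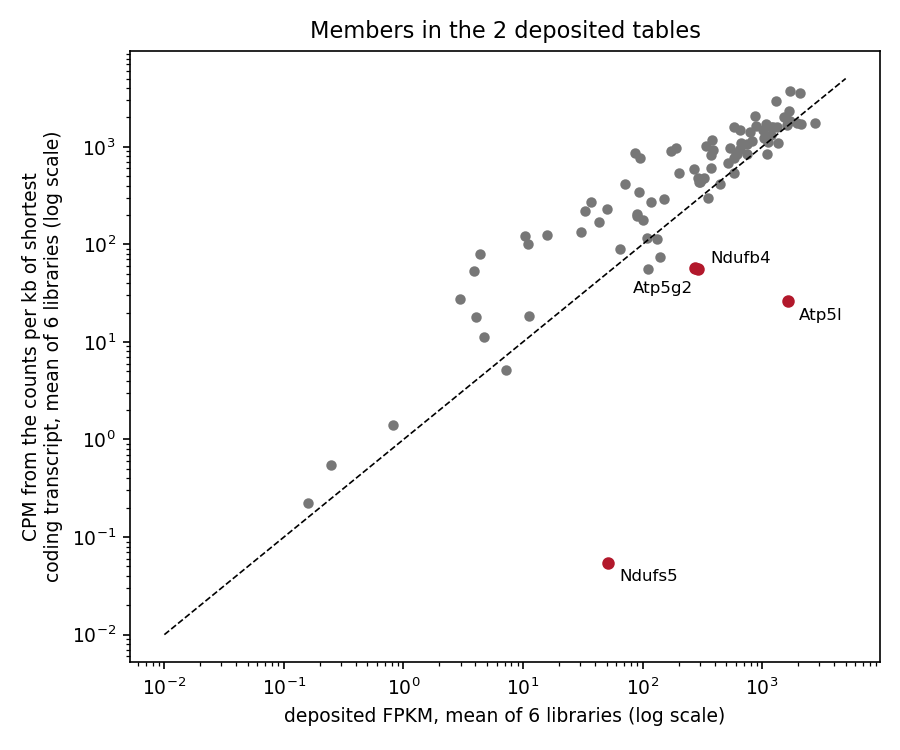
Mean deposited FPKM (x axis, log scale) against mean CPM from the counts per kilobase of the shortest coding transcript (y axis, log scale) for members above 0 in both. Red points are Ndufs5, Atp5l, Ndufb4 and Atp5g2, which fall far below the dashed line of equality.

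Other mitochondrial genes were read in the same fit. Of 77 mitochondrial ribosomal proteins, 7 (9.09%) were called lower, against 5.90% of all genes, and 1, Mrps6, higher, with a median of -0.28. Mrpl33 had 818 ± 46.2 CPM in kidney and 1346 ± 74.1 in spleen and marrow (SD over 3 libraries), with a log2 fold change of -0.72 ± 0.11 (SE, adjusted p = 0.00688). Cytosolic ribosomal proteins had a like median of -0.29, with 2 of 78 (2.56%) called lower. All kidney libraries lay below the other group for 29 mitochondrial (37.7%) and 37 cytosolic ribosomal proteins (47.4%). Log2 fold changes were below 0 for 63 of 77 and 71 of 78. The respiratory chain median of -0.26 was thus near that of both ribosomes, and no test set the lists against each other. In the citric acid cycle 1 of 13 (7.69%) was called lower, the malate dehydrogenase Mdh2, at -0.72 ± 0.15 (SE, adjusted p = 0.0179). Of 11 coenzyme Q genes Coq7 was called lower (9.09%), of 16 fatty acid oxidation genes Etfb (6.25%), and of 23 import genes Timm50 (4.35%), while Timm10 was called higher. Single calls in lists of this size lie near the share of all genes. Among 9 carriers and channels and 36 assembly factors outside the symbol rule there was no call. Leaving out any 1 spleen and marrow library ended the calls of Mdh2, Coq7, Etfb, Timm10 and Timm50, with an adjusted p of at most 0.124, for Etfb. Leaving out kidney 7 also ended those of Coq7, Etfb and Timm50, and leaving out kidney 8 those of Coq7 and Etfb. Leaving out spleen and marrow 24 or 26 ended that of Mrps6 (adjusted p up to 0.13).

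Among 14 tested regulators of mitochondrial gene expression, 1 was called, higher in kidney. Over all genes, 7.83% were called higher. Myc, a transcription factor that drives growth and ribosome genes, had 22.1 ± 1.63 CPM in kidney and 7.30 ± 1.37 in spleen and marrow (SD over 3 libraries), with a log2 fold change of 1.59 ± 0.28 (SE, adjusted p = 0.00983). Without spleen and marrow 24 or 26 it was no longer called (adjusted p up to 0.0738). The direction of Myc was opposite to that of most respiratory chain genes. Tfam, the mitochondrial DNA packaging factor, had -0.47 ± 0.22 (SE, adjusted p = 0.210). Esrra and Ppargc1b, an orphan nuclear receptor and its coactivator, had 0.78 ± 0.29 and 2.60 ± 0.78 (SE, adjusted p = 0.124 and 0.0651). Ppargc1b was highest in kidney 22, with 4.03, 4.17 and 20.6 CPM in kidney 7, 8 and 22 and 0.965 to 2.05 in spleen and marrow, and its log2 fold change without kidney 22 was 1.39 ± 0.44 (SE, adjusted p = 0.0574). Nrf1 and Gabpa, whose motifs are given above, had -0.15 ± 0.24 and -0.08 ± 0.21 (SE, adjusted p = 0.734 and 0.850).

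How often a member was called lower was compared with all genes in each fit. DESeq2 called 22 members lower, with 8.25% of all genes, and limma-voom 19, with 7.89%. The robust edgeR fit called 12 (5.99% of all genes), a filter of 1 CPM in 3 libraries 10 (5.88%), no filter 9 (3.88%) and DESeq2's size factors in edgeR 8 (5.93%). Thinning all libraries to the smallest left 7 (5.37%) and scaling by library size alone 6 (5.11%). On the deposited FPKM, limma-trend called 3 with a pseudocount of 1 (8.38%) and 4 with 0.1 (7.34%), below the share of all genes. Summing spleen and marrow 24 and 26 into 1 library left 1 (1.78%), and an adjusted p under 0.01 left 0 (1.78%).

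**Figure D5:**
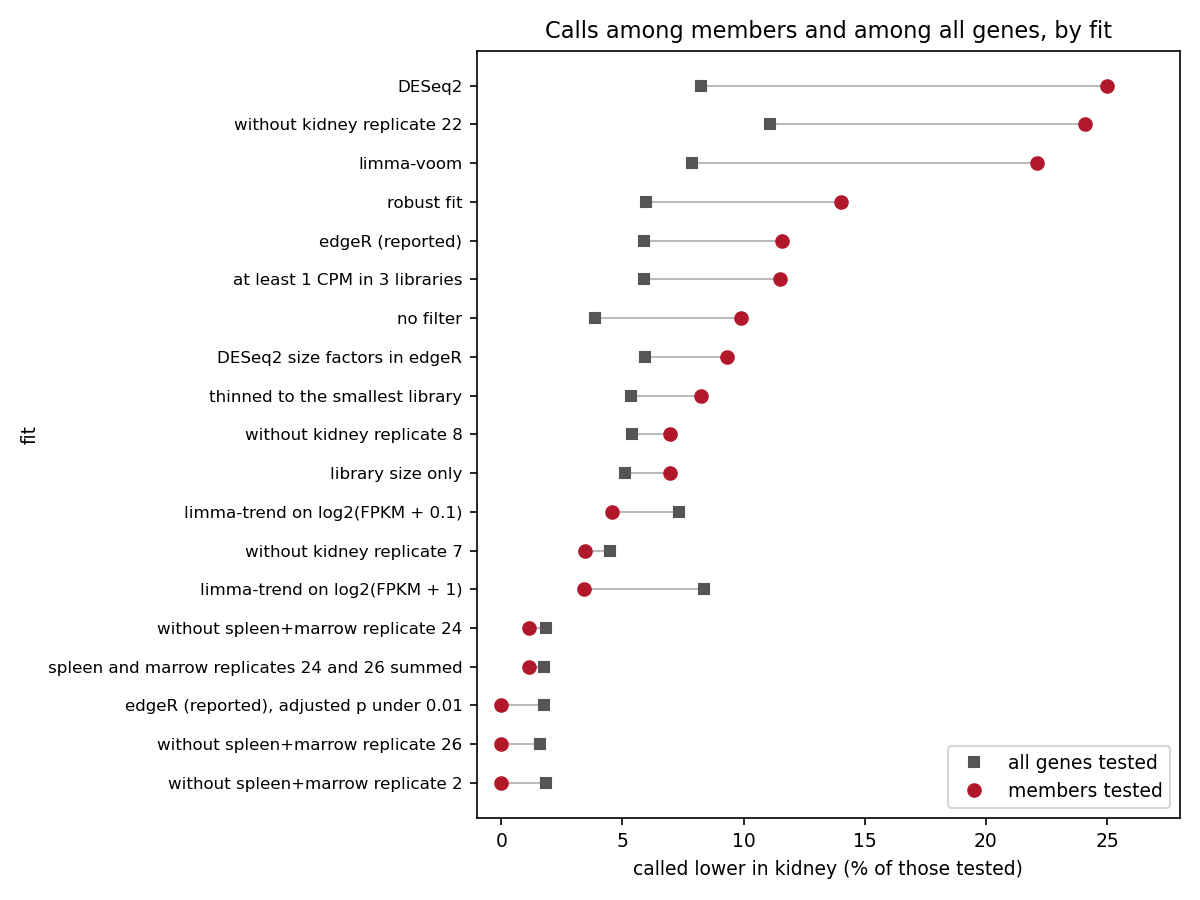
Percent called lower in kidney (x axis) among the tested members (circles) and among all genes tested (squares) for each fit (y axis). The member share exceeds that of all genes in 11 of the 19 fits and is at or near 0 when any spleen and marrow library is left out.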

How the data were processed

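The series measured bulk RNA of sorted monocytes. Per the labels' protocols, 2 ng of RNA gave full-length cDNA by SMART-Seq v4, sheared to about 150 bp. The authors deposited raw counts per gene symbol (24047 rows) and FPKM values (24043 rows). The submitters' processing notes name STAR 2.5, Cufflinks 2.2.1, bcl2fastq 2.18 and the build mm9, without roles; the read counter is not given in the sources used here. Strand is not marked by this chemistry, so reads of overlapping genes on opposite strands cannot be told apart by strand. How such reads were counted is not known.

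Counts were tested with edgeR 4.0.16 (R 4.3.3): filterByExpr, TMM, quasi-likelihood F tests, two-sided, Benjamini-Hochberg over all 10626 genes. CPM is scaled by TMM. SE is the size of the log2 fold change over the square root of F. The script was tested on simulated data over genes of all tested levels. It recovered 14.9%, 70.1% and 92.4% of true log2 fold changes of 1, 2 and 3, with 4 false calls. The lack of a call therefore does not mean equal levels. Recovery at the members' own levels was not measured apart. In the data, members with log2 fold changes as small as -0.44 (Ndufb9) were called. Alternatives used DESeq2 1.42.0 and limma 3.58.1. Promoters came from RefSeq GRCm38.p6 (90 members matched by symbol, 3 by synonym) and transcripts from GENCODE M21; no coordinates were converted.

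The members, lists and tests were chosen with earlier results of these data known. Named by rule were called members (at most 15 per direction), the 2 highest by FPKM per complex, isoforms, the 3 largest uncalled log2 fold changes per direction, listed regulators and at most 3 called genes per other list and direction. Other members named, and the split into core, accessory, head, ring and stator subunits, were chosen after values were seen.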

Additional observations from a re-analysis of the deposited data

How the results depend on the processing

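Calls among the members depended on the fit. Beside the 10 reported, DESeq2 called 22 lower, limma-voom 19, library size alone 6, limma-trend on log2(FPKM + 1) 3 and on log2(FPKM + 0.1) 4. Summing spleen and marrow 24 and 26 left 1, an adjusted p under 0.01 left 0, and leaving out 1 library gave 0 to 21; the summed and leave-one-out fits have fewer samples, and for the others the cause was not tested. The DESeq2 and limma-voom calls include all 10, and each FPKM fit shares 1. DESeq2 size factors, no filter, a 1 CPM filter, a robust fit and thinning to the smallest library, which was chosen after seeing the data, gave 7 to 12. No member was called higher in any of these fits. The median log2 fold change was below 0 in each and moved to -0.36 and -0.40 in the FPKM fits, where the median of all genes was -0.16 and -0.22. Of the alternative values of named genes and lists, 0 reversed, 147 lost and 17 gained a call, and 175 moved. Members outside this tally also gained calls. Ndufb10, for example, was called lower by DESeq2, limma-voom, the robust fit and the fit without kidney 22. No paired analysis was possible because the groups share no replicate number. Counts limit Cox7a1 and the 7 untested genes.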
